A study of Mus musculus with 10 samples.

Results

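The calmodulin-dependent protein kinases Camk4, Camkk1, Camkk2, Camk2b, Camk2d and Camk2g, and the calcineurin subunits Ppp3ca, Ppp3cc, Ppp3r1 and Ppp3r2, were followed in testis of wild-type (WT) mice and of mice without a functional Crem gene (KO). These 10 genes were chosen by function, with earlier results of these data known. Each was represented by the array feature that carried its symbol alone and, where several did, by the one with the highest mean over all arrays. Such a feature was found for 9 of them, out of 19661 genes in all, and Camkk1 is not analysed here. RNA was taken from whole testes of 5 WT and 5 KO animals, and each animal had an Affymetrix Mouse Gene 1.0 ST array of its own. The KO mice (Crem-/-) were homozygous for an insertion of a neo gene into the DNA-binding domains of Crem, whose product is a transcription factor of the cAMP response in spermatids. All mice were untreated males of a mixed background, 129Pas x C57Bl/J, sampled at an age of 8 weeks when the lights came on (0 h). The mutation was present in every cell of the animal, and a whole testis holds germ cells, Sertoli cells, Leydig cells and vessels together. In such bulk samples fewer cells of a type and less RNA per cell cannot be told apart.

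Calcium that enters a cell binds calmodulin, and the loaded calmodulin switches on both kinases and a phosphatase. In the kinase cascade, CaM kinase kinases (Camkk1, Camkk2) phosphorylate CaM kinase IV (Camk4), a nuclear kinase of transcription factors of the CREB family. The Camk4 gene also gives calspermin, a short testis product that keeps the calmodulin-binding end and lacks the kinase domain. CaM kinase II (Camk2b, Camk2d, Camk2g) forms large rings that keep their activity after calcium has fallen. Calcineurin, the phosphatase, pairs a catalytic A subunit with a calcium-binding B subunit: Ppp3ca and Ppp3r1 are found in most tissues, whereas Ppp3cc and Ppp3r2 make up the form of sperm, which the midpiece of the tail needs for its flexibility.

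The 9 measured genes did not move as one group. Camk4 fell steeply, 5 genes rose (Camk2d, Camk2g, Ppp3ca, Ppp3cc and Ppp3r1), and Camkk2, Camk2b and Ppp3r2 did not pass the test. Neither calcineurin subunit of sperm was called lower. Calls were made with limma at a Benjamini-Hochberg adjusted p under 0.05 over all features. By this rule 13.2% of the 19661 genes were called lower in KO and 31.1% higher, against 1 and 5 of the 9. With a log2 change of at least 1 as well, the shares were 4.36% lower and 1.37% higher, and 1 gene of the set (Camk4) was lower and 1 (Ppp3r1) higher. Every KO array lay below every WT array for 10.7% of all genes and above for 22%, and for the set these numbers were again 1 and 5. The median change over the 9 genes was 0.22, and over all genes it was 0.07. All levels and changes are on the log2 scale of the deposited values, changes are KO minus WT, and levels are compared only within a gene, because the probes of different genes differ in brightness.

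**Figure D1:**
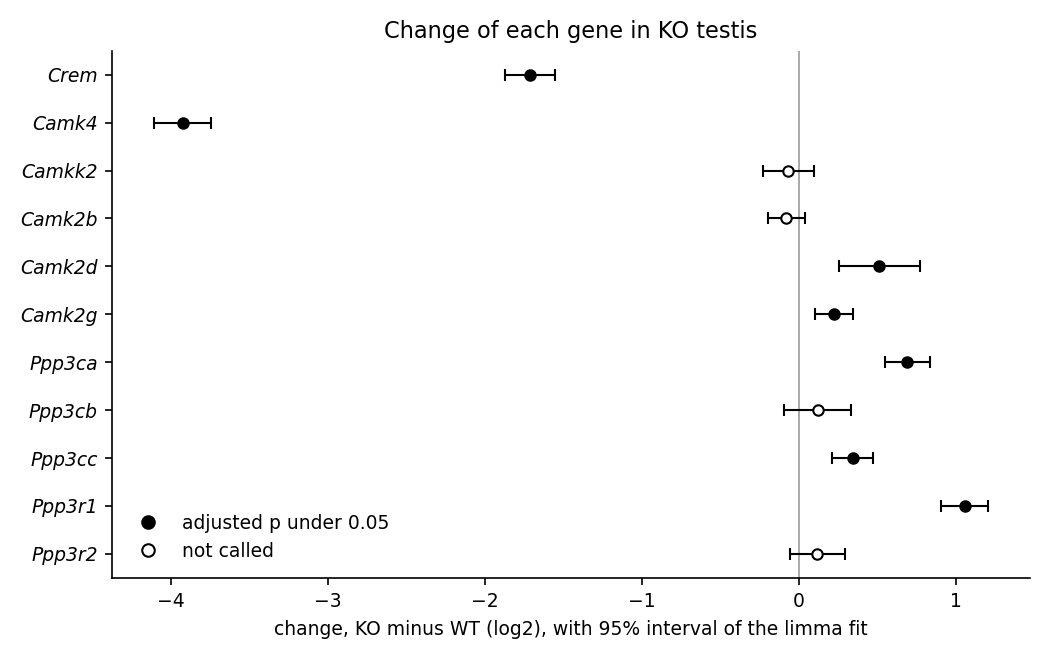
Change of each gene between KO and WT testis (KO minus WT, log2). Points are fitted changes over 5 arrays per genotype, bars the 95% interval of the limma fit, and filled points have an adjusted p under 0.05. Camk4 lies at −3.92, further from 0 than Crem itself at −1.71, and Ppp3r1 at 1.05 is the highest of the genes plotted.

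The labels place the arrays in 4 batches and do not say what a batch stands for. Batch 2 held WT replicates 1, 2 and 3 and KO replicate 3, batch 4 held WT replicate 5 and KO replicates 1, 4 and 5, and batches 1 and 3 held KO replicate 2 and WT replicate 4 alone. Array medians lay between 7.11 and 7.15, and Pearson's r across features was at least 0.9919 within a genotype and at most 0.9519 between genotypes. The targeted gene was lower in every KO array: Crem was at 10.89, 11.04, 10.96, 10.93 and 10.94 in WT replicates 1 to 5 and at 9.29, 9.29, 9.41, 9.01 and 9.18 in KO replicates 1 to 5 (change −1.71 ± 0.07, SE, limma adjusted p = 3.00e-10). Its feature averages probes along the gene and cannot show which part of the transcript remained. Among markers of the labelled tissue, protamine 1 (Prm1) had a mean level of 13.79 in WT testis and the meiotic cyclin Ccna1 had a mean level of 9.58.

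Camk4 was at 9.82, 9.80, 9.64, 9.75 and 9.68 in WT replicates 1 to 5. In KO replicates 1 to 5 it was at 5.66, 6.05, 5.97, 5.67 and 5.69. The highest KO array thus lay far below the lowest WT array, and the 3 KO arrays of batch 4 were nearly alike, with KO replicates 2 and 3 above them. The WT mean was 9.74 ± 0.08 and the KO mean 5.81 ± 0.19 (SD over 5 arrays each), which differ by −3.92 ± 0.08 (SE, 95% interval −4.11 to −3.74, limma adjusted p = 1.53e-12). The KO level was 6.59% of the WT level, a 15.2-fold fall, and it ranked 161 among the falls of all genes. The change was −3.78 within batch 2 and −4.00 within batch 4. One feature measures the gene, so CaM kinase IV and calspermin are not separated, and whether the KO level exceeds background was not tested.

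The upstream kinase Camkk2 did not follow it. Camkk2 lay between 7.88 and 8.10 in WT and between 7.74 and 8.11 in KO, so the groups overlapped over nearly their whole range. Its change was −0.07 ± 0.08 (SE, 95% interval −0.23 to 0.09, limma adjusted p = 0.513), and the interval leaves no room for a fall of the size seen in Camk4.

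The genes of CaM kinase II moved little, and those that passed the test rose. Camk2d, the delta chain, was at 7.07, 7.34, 6.71, 7.35 and 7.24 in WT replicates 1 to 5 and at 7.88, 7.46, 7.65, 7.55 and 7.73 in KO replicates 1 to 5. All KO arrays were above all WT arrays, but WT replicate 3 was low and the gap between the groups was narrow. Camk2d rose 1.42-fold (0.51 ± 0.12, SE, limma adjusted p = 0.00373). Camk2g, the gamma chain, ranged from 8.41 to 8.58 in WT and from 8.61 to 8.77 in KO and rose by 0.22 ± 0.06 (SE, limma adjusted p = 0.00642). Camk2b, the beta chain, overlapped between 6.90 and 7.06 in WT and 6.82 and 6.94 in KO (change −0.08 ± 0.05, SE, 95% interval −0.20 to 0.04, limma adjusted p = 0.260). Within batches Camk2d was at 0.61 (batch 2) and 0.48 (batch 4) and Camk2g at 0.27 and 0.16, and neither passed the test there (limma adjusted p from 0.0767 to 0.398), where 1 group is a single array.

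**Figure D2:**
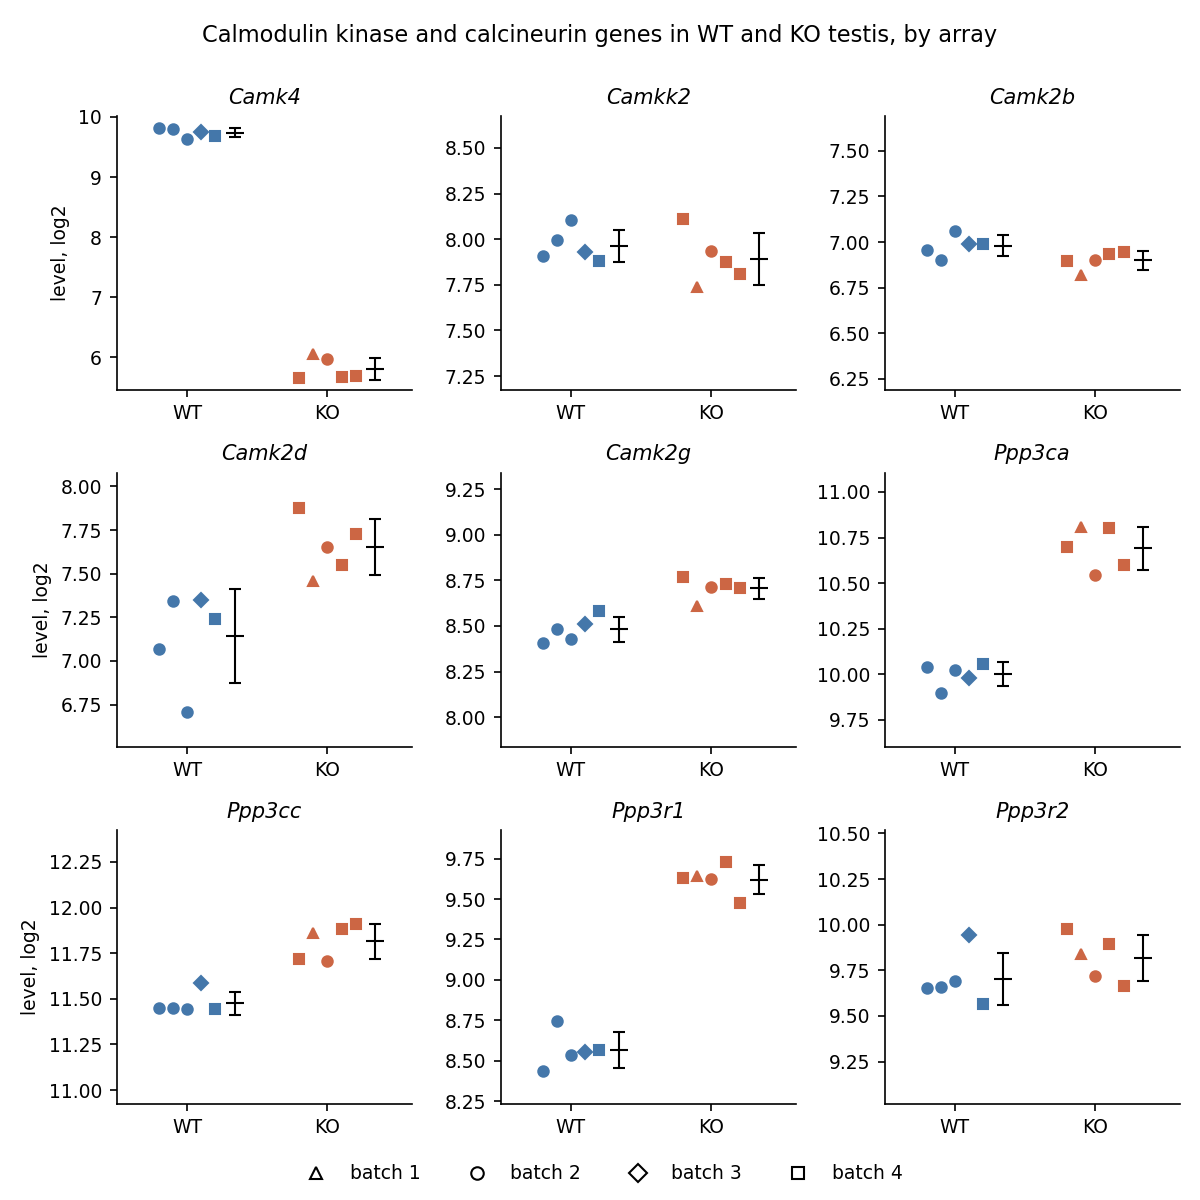
Level of each measured gene in every array (log2), with WT in blue, KO in orange, the batch as marker shape, and the mean ± SD of 5 arrays as a bar. Each panel has a y axis of its own that does not start at 0. The Camk4 panel spans the widest range, from 5.66 to 9.82, while the KO and WT points of Camkk2, Camk2b and Ppp3r2 overlap.

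Both calcineurin subunits of most tissues rose. Ppp3ca, the alpha catalytic chain, was at 10.04, 9.90, 10.03, 9.98 and 10.06 in WT replicates 1 to 5 and at 10.70, 10.81, 10.54, 10.80 and 10.60 in KO replicates 1 to 5. The groups were clearly apart, and the change was 0.69 ± 0.07 (SE, 95% interval 0.54 to 0.83, limma adjusted p = 1.98e-06), a 1.61-fold rise. Ppp3r1, the B subunit found in most tissues, was at 8.43, 8.74, 8.53, 8.55 and 8.57 in WT replicates 1 to 5 and at 9.63, 9.64, 9.62, 9.73 and 9.48 in KO replicates 1 to 5. The lowest KO array was above the highest WT array, and the change of 1.05 ± 0.07 (SE, 95% interval 0.91 to 1.20, limma adjusted p = 2.84e-08) was a 2.08-fold rise, ranked 229 among the rises of all genes. Within batches 2 and 4 the change was 0.55 and 0.64 for Ppp3ca and 1.05 and 1.04 for Ppp3r1, with limma adjusted p from 0.00235 to 0.0202 in fits where 1 group is a single array.

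Of the subunits of sperm calcineurin, Ppp3cc rose and Ppp3r2 did not pass the test. Ppp3cc, the gamma catalytic chain of testis, was at 11.45, 11.45, 11.45, 11.59 and 11.44 in WT replicates 1 to 5 and at 11.72, 11.86, 11.71, 11.88 and 11.91 in KO replicates 1 to 5. It rose in KO by 0.34 ± 0.06 (SE, 95% interval 0.21 to 0.47, limma adjusted p = 6.07e-04), a 1.27-fold rise with no overlap. In batch 2 (0.26) and batch 4 (0.39) it did not pass the test (limma adjusted p = 0.135 and 0.0831). Ppp3r2, the B subunit of testis, was at 9.65, 9.66, 9.69, 9.94 and 9.56 in WT replicates 1 to 5 and at 9.97, 9.84, 9.72, 9.90 and 9.66 in KO replicates 1 to 5. The groups overlapped, with WT replicate 4 as high as the KO arrays. The change of Ppp3r2 was 0.12 ± 0.08 (SE, limma adjusted p = 0.292), and its 95% interval, −0.06 to 0.29, does not reach a fall of the kind seen in Camk4. Ppp3cb, the beta catalytic chain, also found outside the testis, lay between 9.44 and 9.64 in WT and between 9.25 and 9.86 in KO (change 0.12 ± 0.10, SE, limma adjusted p = 0.386), with KO replicate 4 below every other array.

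The 2 B subunits differed most in response among the calcineurin genes, so the 250 bases before the start of each are printed here from RefSeq (GRCm38.p6, strand of the gene, 5′ to 3′). Capitals mark the core letters of the cAMP response element, TGACG, which on the opposite strand reads CGTCA. Ppp3r1 (chr11:17159048-17159297, plus strand) holds 1, beginning 184 bases before the start, and Ppp3r2 (chr4:49681984-49682233, minus strand) holds none.
Ppp3r1: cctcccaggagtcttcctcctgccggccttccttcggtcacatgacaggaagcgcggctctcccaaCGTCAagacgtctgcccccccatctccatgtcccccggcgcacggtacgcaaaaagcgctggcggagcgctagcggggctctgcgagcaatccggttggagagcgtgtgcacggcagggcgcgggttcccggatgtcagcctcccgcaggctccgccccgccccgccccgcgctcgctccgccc
Ppp3r2: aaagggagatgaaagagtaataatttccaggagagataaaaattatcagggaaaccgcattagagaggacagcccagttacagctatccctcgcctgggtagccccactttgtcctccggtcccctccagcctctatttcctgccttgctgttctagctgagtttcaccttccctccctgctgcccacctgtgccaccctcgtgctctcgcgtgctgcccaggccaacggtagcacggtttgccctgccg
Windows of 300 bases, with 50 bases after the start, were searched for 6 of the 10 genes. Camk4, Camk2g, Ppp3ca and Ppp3cc were not among them. The chromosome of Camk4 was left out of the search and of all windows counted here. Both strands were searched, and the full palindrome TGACGTCA, which contains the core on each strand, was in none of the 6, while 1.79% of 32851 windows held it. The core was in 2 of the 6 (Camkk1 and Ppp3r1) and in 20.8% of all windows. The Ppp3r1 window was 70.7% G and C with 36 CpG dinucleotides, and the Ppp3r2 window was 57% G and C with 11. A match of letters is a description of the sequence and not a bound site.

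Whether an isoform of testis changed differently from its counterpart, and Camk4 from the CaM kinase II genes, was tested within arrays. The measure was a difference of log2 levels on the same array, which does not move with the scaling of the array. For 4 such differences an exact two-sided permutation test over all splits of the 10 arrays was used, adjusted after Benjamini and Hochberg over the 4. The smallest p this design allows is 0.00794. Relative to the WT mean, Ppp3r2 minus Ppp3r1 was at −0.79, −0.94, −1.04, −0.97 and −0.95 in KO replicates 1 to 5 and between −0.22 and 0.25 in WT. Each KO array was thus lower (−0.94 ± 0.09, SE, 95% interval −1.15 to −0.72, exact adjusted p = 0.0106). Ppp3cc minus Ppp3ca was at −0.45, −0.42, −0.31, −0.40 and −0.16 in KO replicates 1 to 5 and between −0.09 and 0.13 in WT, which is lower by 0.35 (−0.35 ± 0.07, SE, 95% interval −0.51 to −0.19, exact adjusted p = 0.0106). The change of each subunit of sperm calcineurin was thus lower than that of its counterpart. Against Ppp3cb the difference of Ppp3cc was not called (0.22 ± 0.14, SE, 95% interval −0.11 to 0.55, exact adjusted p = 0.151), and it was 0.11 without KO replicate 4. Camk4 minus the mean of Camk2b, Camk2d and Camk2g changed by −4.14 ± 0.12 (SE, 95% interval −4.42 to −3.86, exact adjusted p = 0.0106). The tests were chosen with earlier results of these data known, the fall of Camk4 among them. None of the 4 differences is therefore an independent test of the changes of its genes, which come from the same arrays. With medians in place of means, the same permutation test gave an exact adjusted p of 0.0635 for each of the 3 called differences. Several splits share the same pair of medians, so the smallest p of 0.00794 does not hold there. Arrays that separate fully, as in these 3, give this value at any size of difference, so missing the threshold was fixed by the design.

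**Figure D3:**
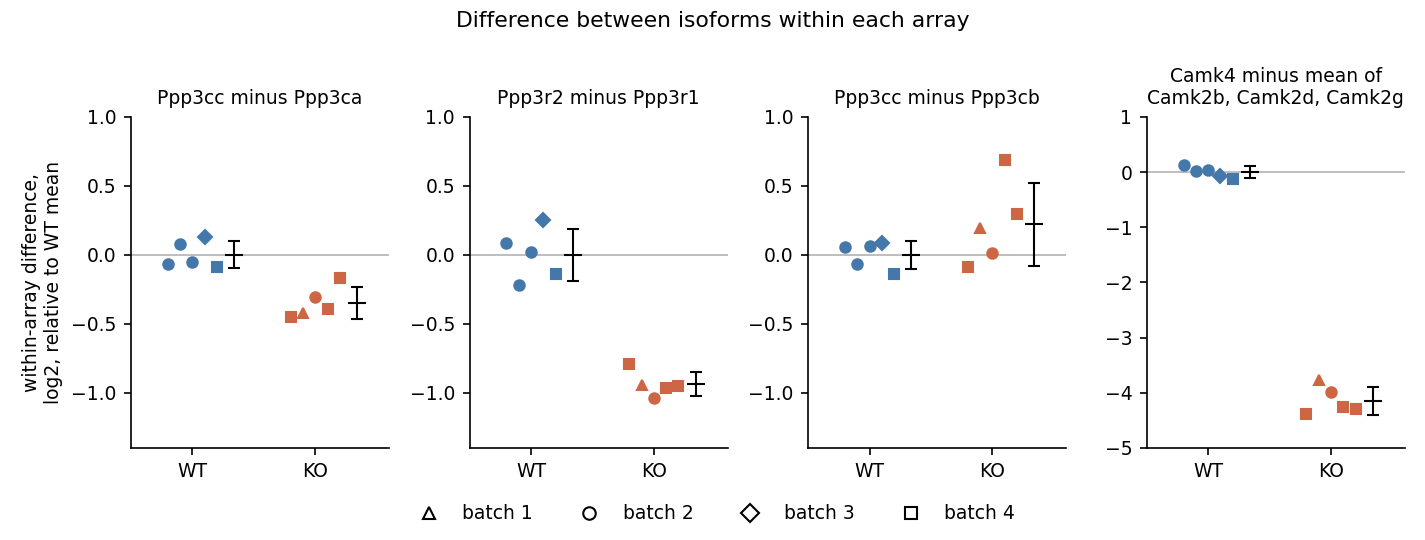
Difference between isoforms, or between Camk4 and the mean of Camk2b, Camk2d and Camk2g, within each array, relative to the mean of the WT arrays (log2). WT is in blue and KO in orange, with the batch as marker shape, the mean ± SD of 5 arrays as a bar, and a longer axis for Camk4. The KO arrays lie below all WT arrays for Ppp3cc minus Ppp3ca (−0.16 to −0.45), for Ppp3r2 minus Ppp3r1 (−0.79 to −1.04) and for Camk4 (−3.78 to −4.38), and overlap them for Ppp3cc minus Ppp3cb.

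Other genes of calcium and calmodulin signalling were taken from 6 lists by function, and 56 of their 57 genes were measured. Of these 10 were called lower and 13 higher, below the share of all genes called higher (31.1%) and near the share called lower (13.2%), and their median change was 0.06. Only Ppm1f changed by at least 1. Ppm1f, a phosphatase that dephosphorylates and so switches off CaM kinases, was at 8.39, 8.58, 8.39, 8.47 and 8.64 in WT replicates 1 to 5 and at 7.66, 7.22, 7.41, 7.38 and 7.48 in KO replicates 1 to 5. Its level fell by 1.06 (−1.06 ± 0.08, SE, limma adjusted p = 2.21e-07), to 47.8% of WT, while the other 3 genes of its list, the CaM kinase II inhibitors Camk2n1 and Camk2n2 and the phosphatase Ppm1e, were not called (−0.15 to 0.15). Among the calmodulin buffers 1 of 4 was called: neurogranin (Nrgn), which holds calcium-free calmodulin, fell by 0.92, from 7.25 ± 0.12 to 6.34 ± 0.11 (SD, n = 5 each, limma adjusted p = 2.73e-07).

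Of 6 measured genes of calmodulin and calmodulin-like proteins, 1 fell and 1 rose. The calmodulin-like gene Calml4 changed by −0.63 ± 0.10 (SE, limma adjusted p = 2.28e-04), but within batch 2 by −0.21 only, where KO replicate 3 was high. Calm2, which encodes calmodulin itself, rose by 0.16 ± 0.06 (SE, limma adjusted p = 0.0392), a call that did not hold with batch as a fixed block (0.0950), with centring on housekeeping genes (0.212), with the KO arrays of batch 4 alone (0.148), or without any 1 of KO replicates 2 to 5 and WT replicates 1 and 5 (adjusted p from 0.0582 to 0.105). Calm3, which also encodes calmodulin, was at 0.20 ± 0.09 and was not called (SE, limma adjusted p = 0.0766). Of 15 other kinases of the calmodulin family and its relatives, 6 were lower and 3 higher, beside 13.2% lower and 31.1% higher among all genes. Camk1d, the delta form of CaM kinase I and like Camk4 a substrate of the CaM kinase kinases, rose in KO from 7.51 ± 0.10 to 8.20 ± 0.14 (SD, n = 5 each, change 0.69 ± 0.08, SE, limma adjusted p = 7.23e-06). The KO arrays lay between 8.01 and 8.31 and the WT arrays between 7.35 and 7.61. Dapk3, a death-associated protein kinase without the calmodulin-binding segment of Dapk1, changed by −0.47 ± 0.07 (SE, limma adjusted p = 2.11e-04).

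Partners and inhibitors of calcineurin, Ppp3cb among them, were called higher in 4 of 11 cases and lower in none, near the 31.1% of all genes called higher, with a median change of 0.12. The calcineurin inhibitors Rcan2 (0.30 ± 0.07, SE) and Cabin1 (0.30 ± 0.07, SE) rose (limma adjusted p = 0.00284 and 0.00366). Rcan2 was at 0.46 within batch 2 and at 0.19 within batch 4. Spata33, which tethers sperm calcineurin to mitochondria and was singled out after its values were seen, was at −0.17 ± 0.10 (SE, limma adjusted p = 0.209). Among 16 targets of calcineurin and the CaM kinases 5 were higher and 1 lower, no more than the shares of all genes (31.1% and 13.2%). Mef2a, a transcription factor that both enzymes act on, rose by 0.35 ± 0.06 (SE, limma adjusted p = 2.67e-04), and Hdac4, a histone deacetylase that CaM kinases send out of the nucleus, fell by 0.38 (−0.38 ± 0.06, SE, limma adjusted p = 1.81e-04). Hdac4 has 2 features, and with their mean in place of the brighter one it was at −0.15 and no longer called (limma adjusted p = 0.0645). None of the 4 NFAT genes (Nfatc1 to Nfatc4), the classical targets of calcineurin, was called, with changes between −0.12 and 0.14. Within batch 2 or batch 4, or both, Calm2, Calml4, Dapk3, Rcan2, Cabin1, Mef2a and Hdac4 did not pass the test, whereas Ppm1f, Nrgn and Camk1d did in each.

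**Figure D4:**
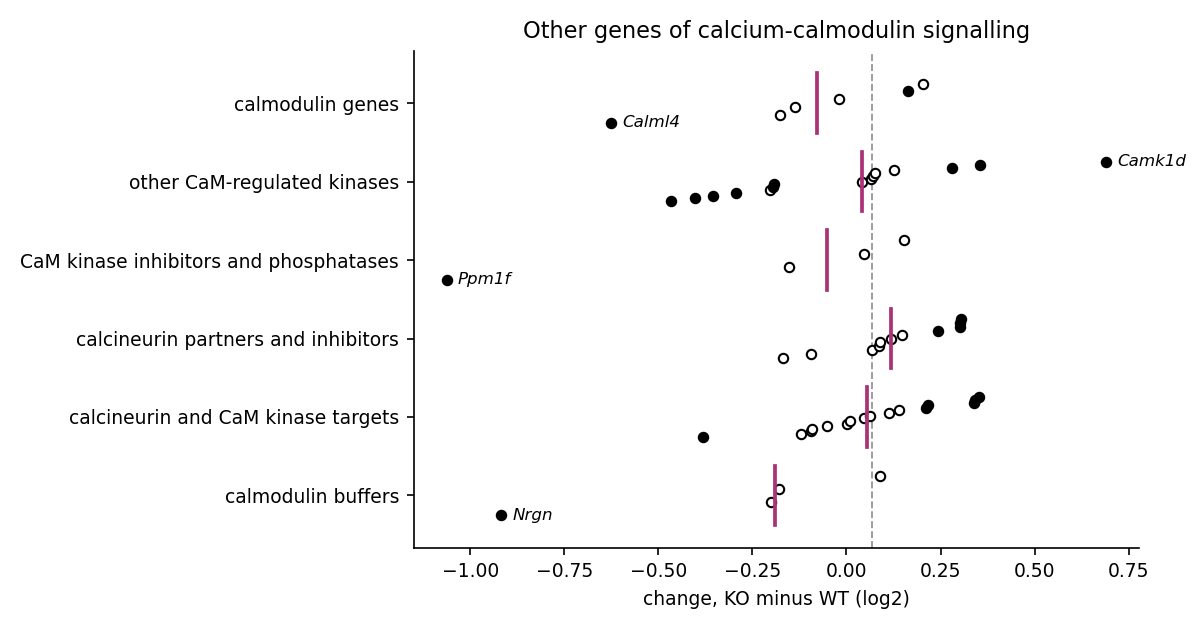
Change of each measured gene of the 6 lists (KO minus WT, log2). Filled points have an adjusted p under 0.05, purple bars are list medians and the dashed line is the median of all genes (0.07). Called genes with a change of at least 0.6 in size are named, and only Ppm1f lies beyond −1.

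Markers of several cell types of testis changed as well, beside 13.2% of all genes called lower and 31.1% called higher. All 9 markers of elongating spermatids fell, with Prm1 at −5.52 and the fibrous sheath gene Akap4 at −5.49 among them. Of 5 markers of round spermatids 4 fell, with Catsper3 at −5.44 and Hspa1l at −5.14, and Acrv1 was at 0.15 ± 0.06 (SE, limma adjusted p = 0.065). The mean level of the elongating list ranged over WT from 13.01 to 13.30. KO replicate 2 had 9.83 and KO replicate 3 had 9.87, against at most 8.70 elsewhere in KO. For the round spermatid list these values were 11.70 to 11.91, then 8.37 and 8.45, and at most 7.82 in the remaining KO arrays. The same 2 KO arrays thus had the higher values of both lists and of Camk4, where they exceeded the other KO arrays by a smaller margin. With the KO arrays of batch 4 alone against all WT arrays, Camk4 was at −4.06. The part that spermatid loss has in the fall of Camk4 was not tested.

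The lists of earlier germ cells and of somatic cells were level or higher. Among all genes 31.1% were called higher and 13.2% lower. The counts of higher Sertoli, spermatogonial and myoid markers lie near or below the share of all genes. Spermatocyte markers were higher in 7 of 9 cases and lower in none, with Spo11 at 0.38 and Sycp3 at 0.36, and their mean level was 10.57 to 10.66 in WT and 10.82 to 10.92 in KO. Spermatogonial markers were mixed (2 higher and 1 lower of 7, with Kit at 0.47 and Gfra1 at −0.29). Sertoli cell markers were higher in 4 of 10 cases (Fshr 0.35, Clu 0.32), Leydig cell markers in 4 of 5 (Hsd17b3 1.08, Cyp11a1 0.84), and peritubular myoid markers in 1 of 5 (Myh11 0.21, with Acta2 at 0.23 not called). Macrophage markers were higher in 7 of 7 cases, led by Adgre1 at 1.52 and Csf1r at 0.61, with a mean level of at most 7.20 in WT and 7.56 to 8.12 in KO. Endothelial markers were higher in 3 of 5 (Tek 2.05, Cdh5 1.15), while Pecam1 (0.02) and Kdr (0.08) were not called. Epididymal markers split, with Ros1 at 2.37 and Rnase10 at −0.42. Mean levels were 9.71 to 9.88 in WT and 10.13 to 10.81 in KO for the Leydig list, and 6.86 to 6.95 in WT and 7.64 to 7.72 in KO for the endothelial list. Beside the rises of Ppp3r1 (1.05) and Ppp3ca (0.69), the median change was 0.26 for the spermatocyte list, 0.21 for Sertoli cells, 0.51 for macrophages, 0.61 for Leydig cells and 0.58 for endothelium. It was −0.004 for the spermatogonial list, 0.10 for peritubular myoid cells and −0.03 for the epididymal list. The part of cell composition in the rises was not tested.

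**Figure D5:**
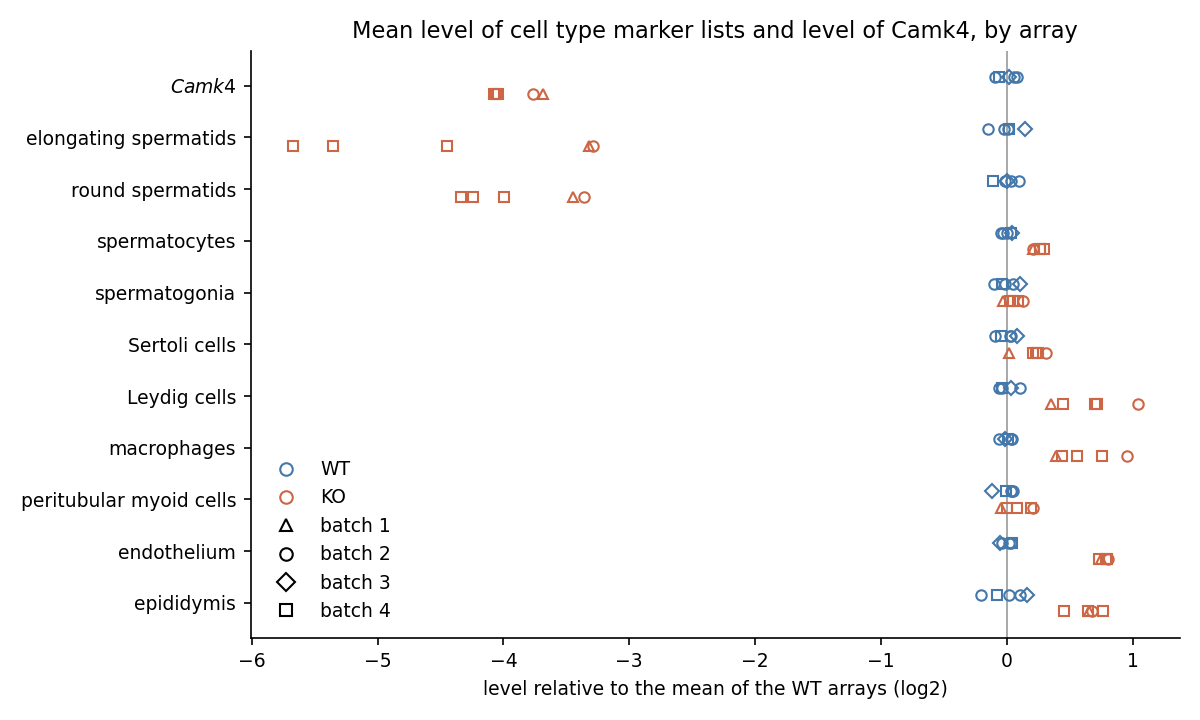
Mean level of each cell type marker list, and the level of Camk4, in every array relative to the mean of the WT arrays (log2, WT in blue, KO in orange, the batch as marker shape). For both spermatid lists and Camk4 the KO points lie far to the left, with the arrays of batches 1 and 2 nearest to WT.

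The genes whose levels followed each of 3 members most closely over the 10 arrays were sought by Pearson's r, a description that the genotypes largely set, because all 10 points fall into 2 groups. For Camk4 they were Ankrd53, 1700022A21Rik, Efcab15, Slc16a7 and Morn3 (r from 0.9994 to 0.9997), with changes of −4.23, −2.41, −3.76, −2.38 and −3.65. Like Camk4, each was higher in KO replicates 2 and 3 than in the other KO arrays. For Ppp3cc they were Ckap2l, Ttc30b, Zcchc8, Ash2l and Lrguk (r from 0.9744 to 0.9798), all higher in KO, by 0.36 to 1.04. For Ppp3r2 the likeness was lower, with Sugp1 at 0.9143 followed by Fhad1, Cdk11b, Rab11b and Mcm7 down to 0.8601. Of these only Cdk11b was called, at 0.27.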

How the data were processed

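Whole testis RNA of 5 WT and 5 KO mice was measured on 10 arrays. The authors normalised them with RMA in the XPS package (core meta-probesets and control probes, background from antigenomic probes, transcript-level summaries), and the deposited values are log2 levels between 2.74 and 14.57. The package version and the genome build of the probes are not given in the sources used here. RMA summarises all probes of a transcript, so isoforms are not separated, near-identical family members can share signal, and changes of weakly expressed genes are compressed. The table has 35557 rows, of which 9868 hold no value, and the fit used the other 25689 features. Names came from the platform annotation, updated through RefSeq (GRCm38.p6). Of the features, 20777 had exactly 1 symbol, and these gave 19661 genes.

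The genotypes were compared by limma 3.58.1 under R 4.3.3 (lmFit, eBayes, two-sided, no covariate), and Benjamini-Hochberg adjustment covered every feature. The fit was tested on simulated data, as was the exact permutation test (scipy 1.17.1). Replicates, 1 mouse each, were numbered in deposition order. Precision is limited by the number of arrays (median standard error 0.0765). The paper gives RNA integrity scores for 5 KO and 5 WT adult mice, and every KO score is above every WT score. Which of these mice gave which array is not stated, and the part of RNA quality in the changes was not tested. A comparison of Camkk1 with Camkk2 was planned and not run, since Camkk1 is not analysed here. The members, gene lists and tests were chosen with earlier results of these data known. Genes named were the members, Crem and Ppp3cb, each list gene called with a change of at least 1, the 2 called genes of the largest change per signalling list, the 2 of the largest change per cell type list, and the 5 genes most like Camk4, Ppp3cc and Ppp3r2. Others were named after their values were seen: Camk2n1, Camk2n2, Ppm1e, Calm3, Acrv1, Ccna1, Pecam1, Kdr, Spata33 and the NFAT genes. Alternatives were other scalings, batch as a block or alone, array weights, other eBayes settings, a low-value filter, the mean of a gene's features, a minimum change, and leaving out each array.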

Additional observations from a re-analysis of the deposited data

Results flagged for a closer look

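Ppp3cc in WT replicate 4, the only array of batch 3, was at 11.59, while the other WT arrays lay between 11.44 and 11.45, a gap of 0.94 of the group's range. It still lay below every KO array. Of 28 groups of 5 arrays examined in this way 1 stood out, and chance gives about 1 in 20.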

How the results depend on the processing

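Over the 23 alternatives no member change reversed a call. Camk4, Ppp3ca and Ppp3r1 passed the test in every one, apart from the minimum change of 1, which Ppp3ca does not reach, and Camk4 ranged from −4.06 to −3.78. Camkk2, Camk2b and Ppp3r2 passed in none. Leaving out each array in turn ended no member's call: Camk4 stayed between −3.98 and −3.89, Ppp3r1 between 1.02 and 1.10, and 1 lower and 5 higher members remained in number. Batch 2 alone gave 2 higher members, 1552 lower and 2208 higher genes in all, and 4 lower and 4 higher genes of the signalling lists. Batch 4 alone gave 2 higher members, 1584 lower and 1902 higher genes, and 3 higher genes of the signalling lists. In these fits 1 group is a single array that is assumed to vary like the others. Against 2599 lower and 6106 higher genes, and 10 lower and 13 higher genes of the signalling lists, the minimum change of 1 left 857 and 269 genes, 1 and 0 list genes, and 1 higher member. The share of higher among called genes was 70.1%, and 58.7% in batch 2, 54.6% in batch 4 and 23.9% with the minimum change, where fewer samples or the threshold itself set the fits apart. With medians the called within-array differences were −0.34 (Ppp3cc minus Ppp3ca), −0.97 (Ppp3r2 minus Ppp3r1) and −4.29 (Camk4 minus the CaM kinase II genes). None was under the threshold (exact permutation adjusted p = 0.0635). For fully separated arrays, as in these differences, the test of medians could give no smaller value, so it could not decide whether the calls hold. No paired analysis was possible because the replicate numbers follow the order of deposition and pair no samples. Batch as a fixed block, an estimate from batches 2 and 4, kept all member calls.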
